A study of Mus musculus with 10 samples.

Results

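IGKJ1 joins are the transcripts of the mouse immunoglobulin kappa light chain locus (Igk) in which the V segment was joined to J1, the J segment nearest to the V segments. They were chosen by the deposited J call alone, as lines whose J call without its allele is IGKJ1. This gave 12383 of 49079 lines and 44059 of 161780 counts, on 111 of the 114 V segments in the table. Small pre-B cells, the bone marrow stage at which kappa genes rearrange, were purified by flow cytometry from mice labelled WT (5 samples) and rsCBE (5 samples). The series' design text gives a C57Bl6 origin and an age of 6 to 12 weeks for the mice, and writes the mutant with a delta before its name. A further mutant named in the design text was not analysed here. The labels name no treatment of any group and do not describe the rsCBE allele, its zygosity or the founder line. The table holds only Igk joins, so the labelled cell type could not be checked against marker genes.

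As background, the RAG recombinase cuts a V and a J segment at their recombination signals, and end joining ligates them after some bases have been lost or added. V segments on the J strand join by deletion and V segments on the other strand by inversion. A first join to J1 leaves the other J segments in place, so the same allele can recombine again with a V segment farther away and a J segment farther downstream, the basis of receptor editing. The joint encodes the end of the third complementarity-determining region (CDR3), and a join that shifts the reading frame makes no light chain.

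J1 lies on the forward strand of chromosome 6 (GRCm38, chr6:70722562-70722599), and the submitters' processing notes name mm10, the same build. The germline segment has 38 bases, of which the first 7 belong to the CDR3 as deposited, which ends before the conserved Phe codon. These 7 bases hold the last base of a codon, a whole Trp codon and a whole Thr codon. The germline J segments are shown from the GENCODE M21 transcripts to compare these ends, with the CDR3 bases in capitals. J2 has 8 CDR3 bases and the others shown have 7, and J1 is the only J segment of these whose end holds a Trp codon.
IGKJ1: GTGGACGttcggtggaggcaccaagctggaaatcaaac
IGKJ2: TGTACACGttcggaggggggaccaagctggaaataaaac
IGKJ4: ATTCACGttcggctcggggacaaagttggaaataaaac
IGKJ5: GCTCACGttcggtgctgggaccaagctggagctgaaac

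The germline ends of V segments are shown from the codon after the conserved Cys, because the joints below are read against them. Of 111 V segments with such an end in GENCODE M21, 49 end in CCTCC, Igkv8-16, Igkv9-120 and Igkv3-2 among them. Igkv1-135 ends in another base.
Igkv8-16 germline end: cagcagcatttacacattcctcc
Igkv9-120 germline end: ctacaatatgctagttctcctcc
Igkv3-2 germline end: cagcaaagtaaggaggttcctcc
Igkv1-135 germline end: tggcaaggtacacattttcctca
The most frequent J1 joins of these V segments are shown next, 5′ to 3′, with the bases that match the germline J1 end in capitals.
Igkv8-16 to J1, whole J1 end: cagcagcatttacacattccGTGGACG
Igkv8-16 to J1, 5 J1 bases: cagcagcatttacacattcctcGGACG
Igkv9-120 to J1, whole J1 end: ctacaatatgctagttctccGTGGACG
Igkv3-2 to J1, whole J1 end: cagcaaagtaaggaggttccGTGGACG
Igkv1-135 to J1, 5 J1 bases: tggcaaggtacacattttcctcGGACG
Igkv1-135 to J1, out of frame: tggcaaggtacacattttccTGGACG
The joins with the whole J1 end lacked the last 3 V bases and encode Trp next to last. The in-frame joins with 5 J1 bases lacked the last V base, and their next-to-last codon, made of 1 V base and 2 J1 bases, encodes Arg. The out-of-frame join lacked 2 V bases, and its sixth J1 base from the Phe codon could belong to either segment.

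J1 counts per WT sample, replicates 1 to 5, were 6985, 6523, 4669, 860 and 3073. The rsCBE samples had 5373, 5015, 4941, 3685 and 2935. WT replicate 4 was thus the shallowest, and its J1 share of all counts, 27.7%, had a Wilson 95% interval of 26.1 to 29.3%. Such intervals cover counting error only, since it is not stated what a single count stands for. The labels do not say that the 5 samples of a group came from separate mice, so p-values measure the spread between these samples. In the table, replicates 1 and 2 are 1 library each in either genotype, while replicates 3 to 5 come as parts a and b, which were added. The division is in the table, and its cause is not stated. Both V segments most joined to J1 followed it. Igkv8-16 made up 2.71 to 3.87% of J1 counts in the 4 samples deposited as 1 library and 11.3 to 16.1% in the 6 deposited as parts. The same ranges for Igkv1-135 were 2.24 to 3.95% and 12.0 to 14.7%. Both genotypes fall on both sides, and values within each side are given where they matter.

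J1 made up a lower share of joins in rsCBE than in WT, both among joins that can encode a light chain and among those that cannot. An in-frame join here has a CDR3 length that is a multiple of 3 and no stop codon. Among in-frame joins, the J1 share was 31.4, 31.9, 35.1, 30.4 and 32.8% in WT replicates 1 to 5. It was 24.2, 23.9, 28.9, 26.4 and 27.3% in rsCBE. Every rsCBE sample lay below every WT sample. The means were 32.3% ± 1.76 and 26.1% ± 2.10 (SD, n = 5 each), and rsCBE minus WT was -6.17 points (two-sided exact permutation test, adjusted p = 0.0159 over both frame classes).

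Joins that are not in frame had J1 shares of 28.5, 27.1, 30.9, 22.4 and 35.5% in WT and 18.0, 17.0, 23.9, 24.8 and 21.9% in rsCBE. The groups overlapped here, because WT replicate 4 fell inside the rsCBE range. The means were 28.9% ± 4.82 and 21.1% ± 3.50 (SD, n = 5 each), a difference of -7.75 (exact permutation test, adjusted p = 0.0238). This call was lost without WT replicate 5 (-6.10, adjusted exact permutation p = 0.0556), with part b alone for replicates 3 to 5, and when labels were exchanged only within the samples deposited alike (p = 0.050). The differences were -10.3 points among samples deposited as 1 library and -6.05 among those deposited as parts. The genotype difference did not itself differ detectably between in-frame and other joins (interaction 1.58 points, exact permutation p = 0.484). With 1 sample left out, this interaction ran from 0.0496 points (without WT replicate 5) to 2.74 (without WT replicate 4).

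**Figure D1:**
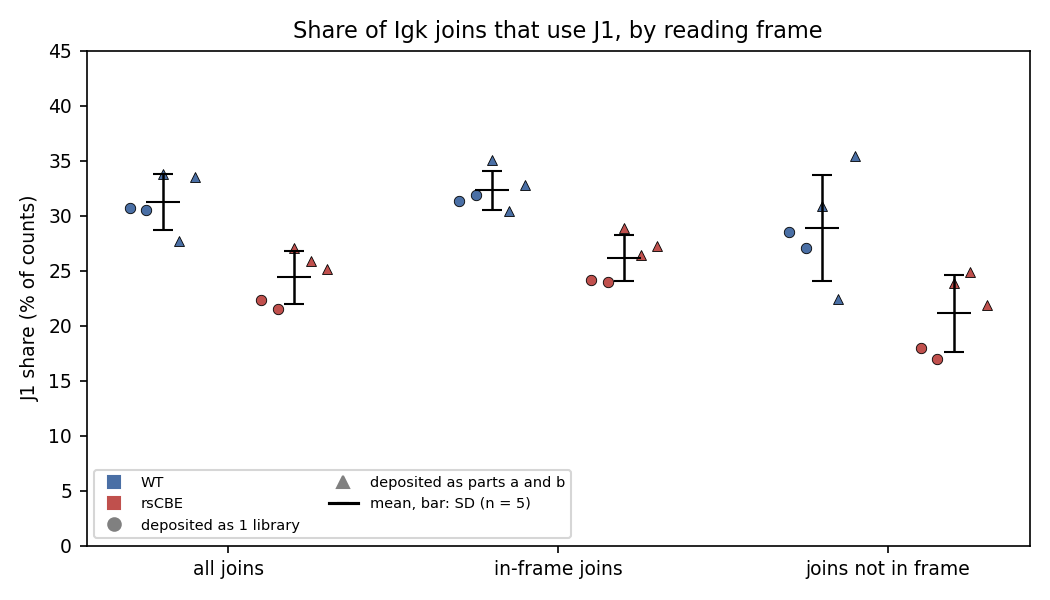
J1 share of all joins, of in-frame joins and of joins not in frame (y axis, percent of counts), 1 point per sample, circles for samples deposited as 1 library and triangles for parts a and b, with the mean and SD of 5 samples. The in-frame values of WT (30.4 to 35.1%) lie above those of rsCBE (23.9 to 28.9%), while the joins not in frame overlap.

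The lower J1 share was seen in all 3 position classes of V segments. V segments were classed by the number in their name, which rises with distance from J1, as proximal (1 to 45), middle (46 to 90) and distal (91 and above). Among proximal joins, J1 made up 29.5% ± 4.16 in WT and 22.8% ± 2.83 in rsCBE. Among middle joins, the shares were 28.0% ± 2.80 and 21.5% ± 0.901. The distal joins had the highest J1 shares, 34.9% ± 2.71 and 27.7% ± 3.29 (SD over 5 samples for all classes). These class values were not tested.

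Most J1 joins were in frame. The in-frame share of J1 counts was 78.3, 74.4, 71.9, 72.1 and 69.0% in WT and 75.7, 72.8, 67.9, 67.5 and 66.3% in rsCBE. The groups overlapped, at 73.1% ± 3.45 and 70.04% ± 4.01 (SD, n = 5 each, difference -3.09, exact permutation p = 0.230), and the difference was -1.80 without WT replicate 1. With every clonotype counted as 1, whatever its count, the difference was -5.07 points and passed (exact permutation p = 0.0238). Joins out of frame made up 26.1% ± 3.37 and 29.2% ± 4.18, and joins of a correct length with a stop codon 0.735% ± 0.1004 and 0.740% ± 0.220.

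J1 joins were in frame more often than joins to the other J segments added up, in 9 of 10 samples, but on average not more often than joins to J2 alone. In-frame shares were 73.6% ± 3.78 and 70.9% ± 3.94 for J2, 68.2% ± 4.61 and 62.8% ± 3.08 for J4, and 67.2% ± 5.77 and 60.3% ± 3.06 for J5 (WT and rsCBE, SD, n = 5 each). Against these segments added up, the mean within-sample difference of J1 was 4.89 percentage points (exact sign-flip permutation test over samples, p = 0.00781), from -2.51 in WT replicate 5 to 9.34 in rsCBE replicate 2. Added up, the other J segments had in-frame shares of 69.6% ± 4.72 in WT and 63.8% ± 3.33 in rsCBE (n = 5 each, ± SD). The difference between J1 and the other J segments was 3.52 points in WT and 6.26 in rsCBE, and these did not differ detectably (2.74 points, exact permutation p = 0.262). With 1 sample left out, this genotype difference ran from 1.23 to 4.13 points and did not pass (smallest exact permutation p = 0.0714). In the 6 samples deposited as parts alone, the mean within-sample difference of J1 was 4.17 and did not pass (exact sign-flip permutation p = 0.0938).

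The out-of-frame J1 joins were unevenly split between the shifted frames. A CDR3 with 2 bases beyond a multiple of 3 made up 66.4, 68.4, 69.2, 56.7 and 69.5% of out-of-frame J1 counts in WT and 69.5, 68.5, 69.2, 67.1 and 73.1% in rsCBE. The other J segments together lay between 42.3 and 45.7% in all 10 samples, below every J1 value. The within-sample difference was 23.5 points, above 0 in 10 of 10 samples (exact sign-flip permutation test, adjusted p = 0.00234 over 6 such comparisons added after the data had been seen). With every clonotype counted as 1 it was 15.3 points, also past the test (exact sign-flip permutation test, adjusted p = 0.00293). By segment, the WT means were 48.4% ± 3.15 for J2, 41.4% ± 3.96 for J4 and 41.9% ± 3.78 for J5 (SD, n = 5 each).

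The length of the CDR3 was alike in both genotypes within the spread of samples. The mean over all J1 counts was 26.61 ± 0.102 nucleotides in WT and 26.59 ± 0.0679 in rsCBE, a difference of -0.0226 (exact permutation p = 0.675; SD, n = 5 each). The most frequent length was 27 nucleotides, or 9 codons. It made up 78.7, 76.4, 78.5, 68.1 and 79.6% of in-frame J1 counts in WT and 78.6, 75.7, 75.0, 77.7 and 76.4% in rsCBE, which did not differ detectably (0.428 points, exact permutation p = 0.944). WT replicate 4 stood below all other samples and held 11.3% of its in-frame J1 counts at 30 nucleotides, against 3.43 to 6.01% elsewhere. A length of 24 nucleotides took 15.9% ± 1.22 and 16.4% ± 1.07 of in-frame J1 counts in WT and rsCBE. For the other J segments that length took 12.3% ± 1.53 and 13.2% ± 1.34 (SD, n = 5 each), and their length of 30 nucleotides took 6.24% ± 1.17 and 7.20% ± 0.376. Of the 12 V segments most joined to J1 Igkv19-93, Igkv8-27 and Igkv8-21 had 24 nucleotides as their most frequent length with J1, and the other 9 had 27.

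**Figure D2:**
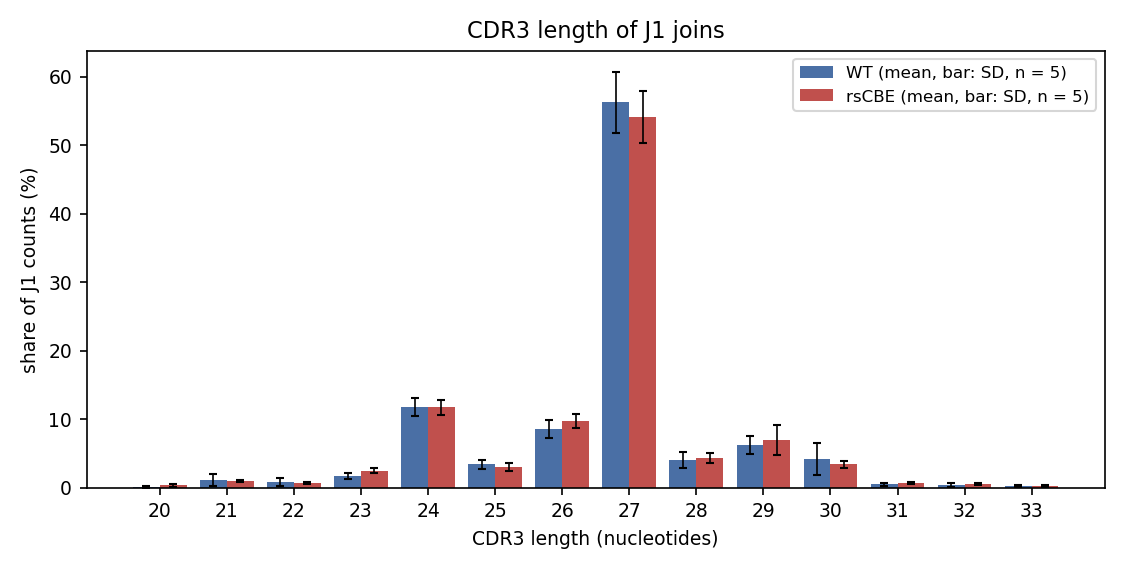
Share of J1 counts (y axis, percent) at each CDR3 length in nucleotides (x axis), with bars for the mean and SD of 5 WT and 5 rsCBE samples. A length of 27 dominates in both genotypes (56.3% in WT, 54.2% in rsCBE of all J1 counts), and 26 and 29, which leave 2 bases over, are higher than 25 and 28.

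The J-encoded end of the CDR3 was also alike in both genotypes. Of the 7 germline J1 bases, a mean of 5.85 ± 0.0798 were kept in WT and 5.87 ± 0.0399 in rsCBE (n = 5 each, ± SD, difference 0.0143, exact permutation test, adjusted p = 0.960 over 3 measures of the end). All 7 were kept in 51.1, 47.9, 44.4, 42.3 and 45.6% of J1 counts in WT and in 50.3, 47.5, 46.1, 43.5 and 44.4% in rsCBE. The second most frequent end kept 5 bases, in 28.8% ± 3.05 and 28.7% ± 1.99. Ends of 6 bases made up 11.9% ± 1.15 and 12.4% ± 1.12, ends of 4 bases 9.85% ± 0.885 and 9.33% ± 0.238, and shorter ends the rest. The share with 6 bases was thus below those on either side of it in every sample. For comparison, all germline J bases of the CDR3 were kept in 13.9% of J2, 68.2% of J4 and 49.2% of J5 counts in WT, and in 17.2, 68.0 and 50.2% in rsCBE.

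**Figure D3:**
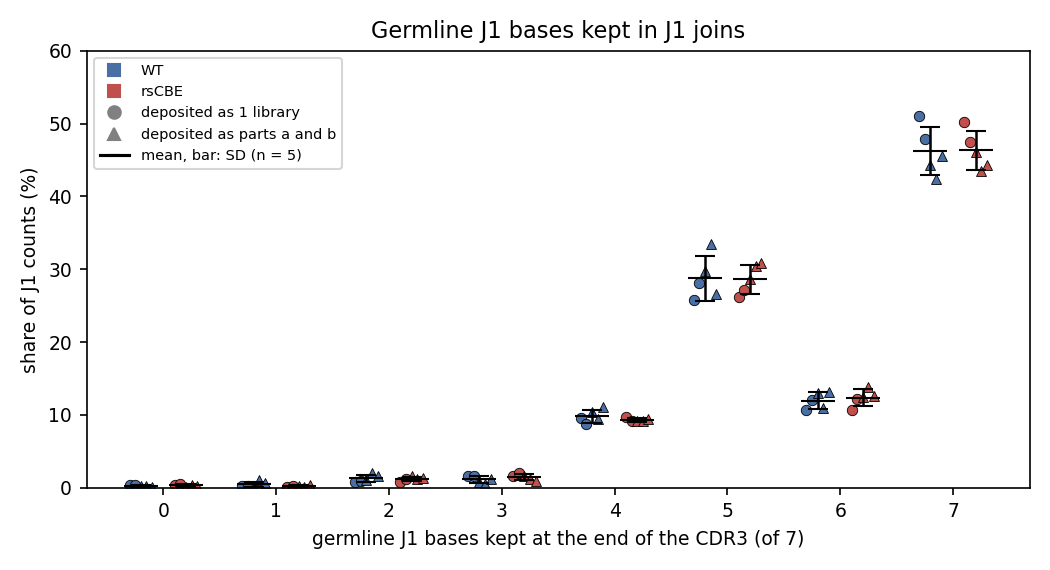
Share of J1 counts (y axis, percent) by the number of germline J1 bases kept at the end of the CDR3 (x axis, 0 to 7), 1 point per sample with the mean and SD of 5 samples. Ends of 7 and of 5 bases lead in all samples, and the genotypes overlap at each number.

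In residues, Trp was next to last in 62.0, 59.4, 54.3, 54.5 and 56.5% of in-frame J1 counts in WT and in 60.7, 58.7, 60.3, 55.6 and 53.4% in rsCBE. The genotypes did not differ detectably (0.382 points, exact permutation test, adjusted p = 0.960). Arg followed with 28.9% ± 2.69 and 29.5% ± 3.05, then Pro with 6.75% ± 1.09 and 6.95% ± 0.805, and Gln with 2.70% ± 1.29 and 2.46% ± 1.44 (SD, n = 5 each). The last residue was Thr, the second whole germline J1 codon, in 98.2% ± 1.22 and 98.6% ± 0.281. In-frame J1 joins thus mostly had Trp or Arg next to last and Thr last, with each position counted separately.

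The full J1 end was more frequent among in-frame joins, at 52.1% ± 3.43 in WT and 52.9% ± 3.12 in rsCBE, than among the others, at 29.9% ± 4.45 and 30.9% ± 2.62 (SD, n = 5 each). On average, in-frame J1 joins kept 0.193 bases more, in 10 of 10 samples (exact sign-flip permutation p = 0.00195, the smallest that 10 samples allow). This difference turned around when every clonotype was counted as 1, to -0.147 (exact sign-flip permutation p = 0.00195), so it rests on the clonotypes with high counts.

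The V side was read in the joins whose CDR3 matched the germline V end to within 10 bases of it, 93.2% ± 0.496 of J1 counts in WT and 94.5% ± 1.21 in rsCBE (n = 5 each, ± SD). Among in-frame joins of this kind, 36.7% ± 3.01 and 37.9% ± 2.78 lacked 3 V bases and kept all 7 J1 bases with none between. A further 20.1% ± 1.33 and 20.9% ± 1.79 lacked 1 V base and kept 5 J1 bases, and 8.22% ± 2.41 and 7.81% ± 0.628 kept the whole V end and 4 J1 bases. The out-of-frame joins with 2 bases over were led by V ends lacking 2 bases and J1 ends of 6 that share 1 base, as in the Igkv1-135 join printed above, at 27.0% ± 2.30 and 26.6% ± 2.16. Joins with 1 base over were led by whole V ends and 5 J1 bases, at 22.6% ± 1.89 and 24.7% ± 3.45.

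Bases that could come from either germline end were rarer in J1 joins than in joins to the other J segments. They were present in 13.4, 14.1, 12.3, 10.2 and 12.4% of J1 counts in WT and in 13.4, 14.8, 13.8, 13.2 and 13.1% in rsCBE. For the other J segments added up, the share was 30.9% ± 2.34 and 31.7% ± 1.2 (SD, n = 5 each). The within-sample difference was -18.2 points, below 0 in 10 of 10 samples (exact sign-flip permutation test, adjusted p = 0.00234). The other J segments ranged from 24.4% for J2 to 36.1% for J5 in WT. Bases matched to neither germline end were present in 12.4% ± 1.25 and 13.0% ± 1.32 of J1 counts. They can include mismatches to the germline V end, and their origin was not tested. They were less frequent among in-frame J1 joins (8.32% ± 1.10 and 7.89% ± 0.648) than among the others (23.7% ± 2.37 and 25.5% ± 2.08; SD, n = 5 each). Such bases were present in 12.5% ± 0.762 and 13.1% ± 0.621 of J5 counts, close to J1. Against the other J segments added up the difference was -1.24 points (exact sign-flip permutation p = 0.00586, below 0 in 9 of 10 samples). It did not pass among the 6 samples deposited as parts (-1.01, exact sign-flip permutation p = 0.0938) or with every clonotype counted as 1 (-0.680, exact sign-flip permutation p = 0.215). Without clonotypes of 1 count it was -0.782 (exact sign-flip permutation p = 0.0215).

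V partners of J1 were many, and their order was similar in both genotypes. The 12 partners with the largest mean shares held 52.6% ± 4.39 of J1 counts in WT and 55.0% ± 4.08 in rsCBE (n = 5 each, ± SD), of 111 V segments in all. They lay at all distances from J1. Igkv3-2 (chr6:70698449-70699067, forward strand, joined by deletion) lies 23.5 kb upstream of J1, and Igkv1-135 (chr6:67609713-67610508, forward strand) lies 3112.1 kb upstream. Igkv8-16 (chr6:70386672-70387252, reverse strand, joined by inversion) lies 335.3 kb upstream.

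Igkv8-16 made up 2.71, 3.46, 11.4, 11.3 and 13.7% of J1 counts in WT replicates 1 to 5 and 3.65, 3.87, 16.1, 14.8 and 11.9% in rsCBE. Igkv1-135 made up 2.61, 2.24, 13.5, 12.0 and 12.4% in WT and 3.95, 3.49, 12.8, 13.7 and 14.7% in rsCBE. Both segments separate the samples by deposition, and over all samples the genotypes overlapped. Among samples deposited as 1 library, both rsCBE values were above both WT values for either segment, while among those deposited as parts the genotypes overlapped. Igkv19-93 (chr6:68736297-68736780, reverse strand) ran the other way, with 9.23, 9.54, 6.30, 7.91 and 6.02% in WT and 9.51, 9.31, 5.22, 5.59 and 6.27% in rsCBE. Igkv9-120 had means of 4.52% ± 1.17 and 4.42% ± 1.67 in WT and rsCBE, Igkv1-117 of 3.74% ± 1.26 and 4.05% ± 1.46, and Igkv3-2 of 4.03% ± 0.936 and 3.75% ± 1.33. The other 6, Igkv8-27, Igkv1-88, Igkv6-17, Igkv6-32, Igkv16-104 and Igkv8-21, had mean shares of J1 counts over the 10 samples between 2.36 and 2.999%. Igkv8-21 reached 4.92% in rsCBE replicate 3, against 1.16 to 2.73% in the other samples.

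**Figure D4:**
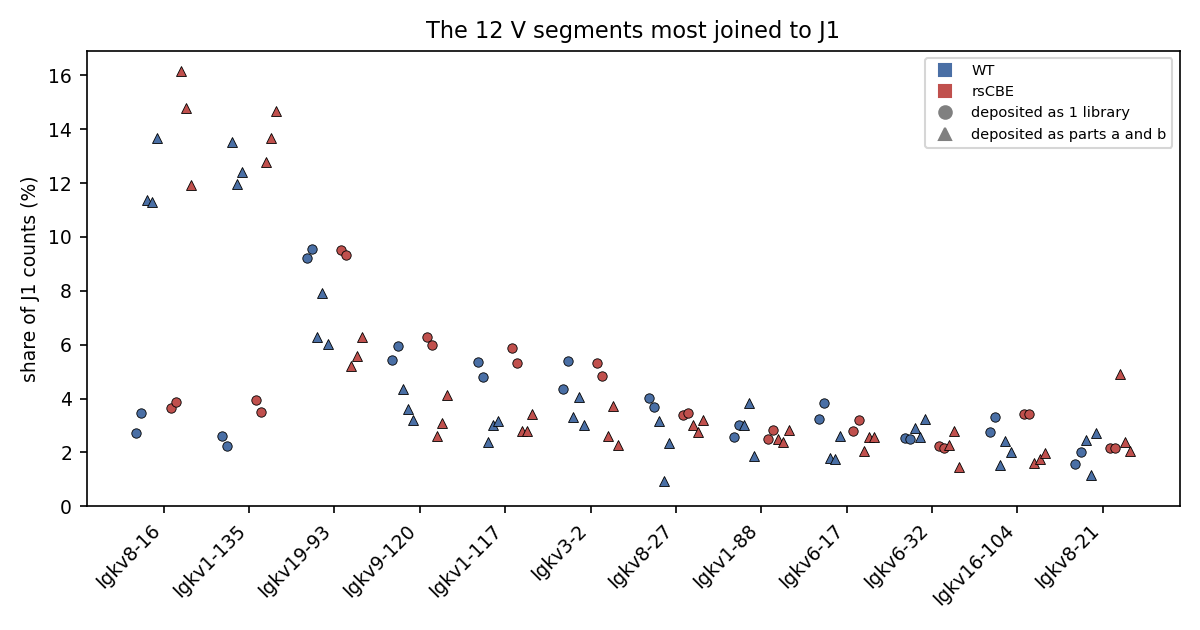
Share of J1 counts (y axis, percent) of the 12 V segments most joined to J1 (x axis), 1 point per sample, WT and rsCBE side by side, circles for samples deposited as 1 library and triangles for parts a and b. Igkv8-16 and Igkv1-135 lie at 2.24 to 3.95% in circles and 11.3 to 16.1% in triangles of both genotypes.

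The position and orientation of the V partners of J1 did not differ detectably between genotypes. Proximal V segments took 38.2% ± 4.37 and 39.8% ± 4.17 of J1 counts in WT and rsCBE (exact permutation test, adjusted p = 0.905 over 3 classes). Middle ones took 18.5% ± 1.497 and 17.1% ± 1.195 (adjusted exact permutation p = 0.476), and distal ones 43.4% ± 3.69 and 43.2% ± 3.78 (adjusted exact permutation p = 0.937). Joins by inversion made up 54.3% ± 2.06 and 53.4% ± 3.12 (difference -0.939, exact permutation p = 0.587; SD, n = 5 each for all 4). With 1 sample left out, the difference in the inversion share ran from -2.06 to -0.0598 points.

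Against the other J segments of the same sample added up, the partners of J1 were more often distal and joined less often by inversion, with J5 farthest from J1 and J2 close to it. Distal shares were 40.3% ± 3.85 and 42.2% ± 6.46 for J2, 37.6% ± 5.81 and 39.5% ± 3.63 for J4, and 33.1% ± 2.87 and 32.2% ± 3.28 for J5 (WT and rsCBE, SD, n = 5 each). Inversion shares were 58.3% ± 3.20 and 54.0% ± 4.82 for J2 and 66.1% ± 2.02 and 65.8% ± 2.28 for J5, with 59.0% ± 3.50 and 57.1% ± 1.49 for J4. In rsCBE both J2 means were within 1 SD of those of J1, and in WT replicates 2 and 5 and rsCBE replicates 1 and 2 the distal share was higher with J2 than with J1. Against all of them, the distal share was 6.64 points higher with J1, in 10 of 10 samples, and the inversion share 7.35 points lower (-7.35), also in 10 of 10 (exact sign-flip permutation tests, adjusted p = 0.00234 each). The proximal share was lower in 9 of 10 samples, the exception being WT replicate 5 (mean -3.51, exact sign-flip permutation p = 0.00586), and among the 6 samples deposited as parts it did not pass (-2.81, exact sign-flip permutation p = 0.0938). Annotated pseudogene V segments took 1.28% ± 0.448 and 1.22% ± 0.3997 of J1 counts, and 2.88% ± 0.788 and 3.65% ± 0.629 of the other counts (SD, n = 5 each). The share was highest with J5, at 4.23% ± 1.32 and 5.11% ± 0.610. Against the other J segments added up, the within-sample difference was -2.02 points, in 10 of 10 samples (exact sign-flip permutation test, adjusted p = 0.00234).

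Single V-J1 pairs were tested in edgeR fits of all V-J pairs in 2 ways. In the first, the offset was the total count of the sample, so that a pair is measured against the whole repertoire. Of 270 pairs tested, 60 with J1, the quasi-likelihood test called 0 (0% of pairs) at an adjusted p under 0.05. At an unadjusted p under 0.05 it gave 25 pairs (9.26%), of which 5 of the 60 were with J1, all lower in rsCBE. DESeq2 with the same offsets called 3 pairs (1.11%), 0 of them with J1. At an unadjusted p under 0.05 it gave 36 pairs (13.3%), of which 10 of the 60 were with J1, a share near that of all pairs. Below 0 were 49 of the 60 J1 pairs, against 51.5% of all pairs, and the median log2 fold change was -0.37 for J1 pairs and -0.05 for all.

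With a term for the way of deposition, 7 pairs passed (2.59% of 270), 2 of them lower in rsCBE (0.741%), and both of these were J1 pairs. The log2 fold change of Igkv19-93 with J1 was -0.50 ± 0.0983 (SE) with edgeR's adjusted p at 0.0143. Igkv10-94 (chr6:68704508-68704978, reverse strand) with J1 stood at -1.002 ± 0.263 (SE) with 0.0456. Over all 10 samples without that term, neither passed, with edgeR's adjusted p at 0.585 and 0.459, at nearly the same fold changes (-0.50 ± 0.287 and -0.97 ± 0.370 SE). Among samples deposited as 1 library, a fit chosen after seeing the data, both passed (-0.48 and -0.82, edgeR's adjusted p = 0.0365 and 0.0327). Among those deposited as parts, neither did (-0.51 and -1.15, edgeR's adjusted p = 0.588 for both). The smallest p over all 10 samples without the term belonged to Igkv15-103 (-1.31 ± 0.484), Igkv3-1 (-0.91 ± 0.341) and Igkv10-94 with J1, all at an adjusted p of 0.459. The value of Igkv15-103 rests in large part on WT replicate 1, where it made up 4.57% of J1 counts, against 0.7496 to 1.30% in the other WT samples and 0.324 to 1.56% in rsCBE. Without that sample its log2 fold change was -0.62 (edgeR's adjusted p = 0.716). In the other direction, Igkv1-132 (0.92 ± 0.579), Igkv4-73 (0.66 ± 0.712) and Igkv14-111 (0.38 ± 0.452) had adjusted p from 0.635 to 0.840 (edgeR, log2 fold change ± SE). With 1 sample left out, Igkv4-73 ran from 0.299 to 0.977 and Igkv14-111 from 0.195 to 0.531.

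In the second fit, the offset was the count of the J segment, so that a pair is measured against the joins of its J segment. It called 0 of 270 pairs (0%), and 9 (3.33%) had an unadjusted p under 0.05. Igkv1-132 was the only J1 pair among these, with 0.12% ± 0.0900 of J1 counts in WT and 0.35% ± 0.119 in rsCBE (n = 5 each, ± SD, log2 fold change 1.30 ± 0.572 SE, edgeR's adjusted p = 0.989). DESeq2 with the same offsets called 0 as well, with 12 (4.44%) at an unadjusted p under 0.05. Below 0 were 30 of the 60 J1 pairs, against 51.5% of all pairs, and the median log2 fold change of J1 pairs was 0.00. With a term for deposition, this fit also called 0 of 270 pairs, with 25 (9.26%) at an unadjusted p under 0.05. Of the 60 J1 pairs, 5 were among these, 3 higher and 2 lower in rsCBE. Igkv1-135 (0.31 ± 0.1095 SE) and Igkv8-16 (0.26 ± 0.108 SE) were higher, with edgeR's adjusted p at 0.381 and 0.487. The V profiles of J1 counts as a whole did not differ detectably between genotypes. Over all samples, the mean Bray-Curtis distance, which runs from 0 for equal shares to 1 for no overlap, was 0.251 between and 0.270 within genotypes (one-sided exact permutation p = 0.595), but the distance within genotypes includes that between the ways of deposition. Within each way, the direction turned, with between minus within at 0.0121 among samples deposited as 1 library and 0.00675 among those deposited as parts. With labels exchanged only within the ways of deposition, the exact permutation p was 0.15.

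V segments differed widely in how often they used J1. Among the 49 V segments with at least 1000 counts, the J1 fraction, the share of a V segment's counts that go to J1, ran from 1.49 to 60.2% with a median of 22.3% (means over the 10 samples). It was under 10% in 14 of them and over 40% in 12. In pooled counts, the highest fractions belonged to Igkv1-135, Igkv10-96, Igkv3-2 and Igkv13-84. By the mean over samples, Igkv3-2 (58.9%) was above Igkv10-96 (53.9%), and Igkv10-94 (51.65%) above Igkv13-84 (51.2%). Both orders of means rest on WT replicate 4, where Igkv10-96 (0 of 4 counts) and Igkv13-84 had a J1 fraction of 0%. Igkv1-135 gave 59.3, 60.3, 64.0, 57.9 and 67.5% of its counts to J1 in WT and 57.3, 55.2, 59.6, 63.5 and 57.1% in rsCBE. Igkv3-2 gave 63.3, 59.1, 62.6, 76.1 and 59.2% in WT and 53.8, 52.4, 57.9, 58.3 and 46.2% in rsCBE, with no overlap.

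In pooled counts, the lowest fractions belonged to Igkv4-91, Igkv4-92, Igkv17-121 and Igkv17-127. By the mean over samples, Igkv2-137 (1.94%) and Igkv8-28 (2.60%) were below Igkv4-92 (2.86%), of which 9 of 46 counts in WT replicate 4 went to J1. Igkv17-127 (chr6:67861153-67861659, forward strand) gave 75 of 3776 counts to J1, at 3.16% ± 2.87 per sample in WT and 1.72% ± 0.942 in rsCBE. Igkv17-121 (chr6:68036812-68037318, forward strand) gave 47 of 3181, at 2.02% ± 1.38 and 0.960% ± 0.653 (SD, n = 5 each). Igkv9-120, its neighbour by name, gave 41.5% ± 8.38 and 33.1% ± 1.06, so V segments close to each other could differ widely in their J1 fraction. By family, the median J1 fraction was 41.8% for 5 Igkv1 segments, 22.1% for 7 Igkv8 segments and 13.7% for 10 Igkv4 segments.

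The germline V end went with the J1 fraction, in a comparison chosen after its values had been seen and given without a test. The median fraction was 35.8% for the 26 V segments ending in CCTCC, from 2.60 to 58.9%, and 11.8% for the 23 with another end, from 1.49 to 60.2%. Over all V segments with a germline end, J1 took 37.2% ± 2.74 of in-frame counts from V segments ending in CCTCC and 27.0% ± 2.14 from the others in WT. In rsCBE these were 31.4% ± 1.77 and 20.8% ± 2.71. Among joins not in frame, the shares lay closer, 31.3% ± 7.83 and 26.9% ± 3.54 in WT and 22.8% ± 2.99 and 19.8% ± 3.91 in rsCBE (n = 5 each, ± SD). Median J1 fractions were 30.8% for the 20 V segments joined by deletion and 20.5% for the 29 joined by inversion.

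The mean J1 fractions of V segments were correlated between genotypes, and most were lower in rsCBE. Over the 49 V segments, mean fractions in WT and rsCBE had a Pearson r of 0.969, a description over V segments that share the samples' libraries. The mean was lower in rsCBE for 41 of 49, with a median difference of -3.80 points. For all 4 J segments of these V segments, 51.5% of 196 fractions were lower, 35 of 49 for J2, 22 for J4 and 3 for J5. All rsCBE samples lay below all WT samples in 6 of 49 with J1, against 3.57% of the 196. These were Igkv1-117, Igkv10-94, Igkv19-93, Igkv3-2, Igkv4-86 and Igkv6-32, named after their values had been seen. Igkv4-86 went from 15.8% ± 2.98 to 7.72% ± 2.96 and Igkv6-32 from 45.7% ± 7.29 to 32.9% ± 6.24 (SD, n = 5 each).

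**Figure D5:**
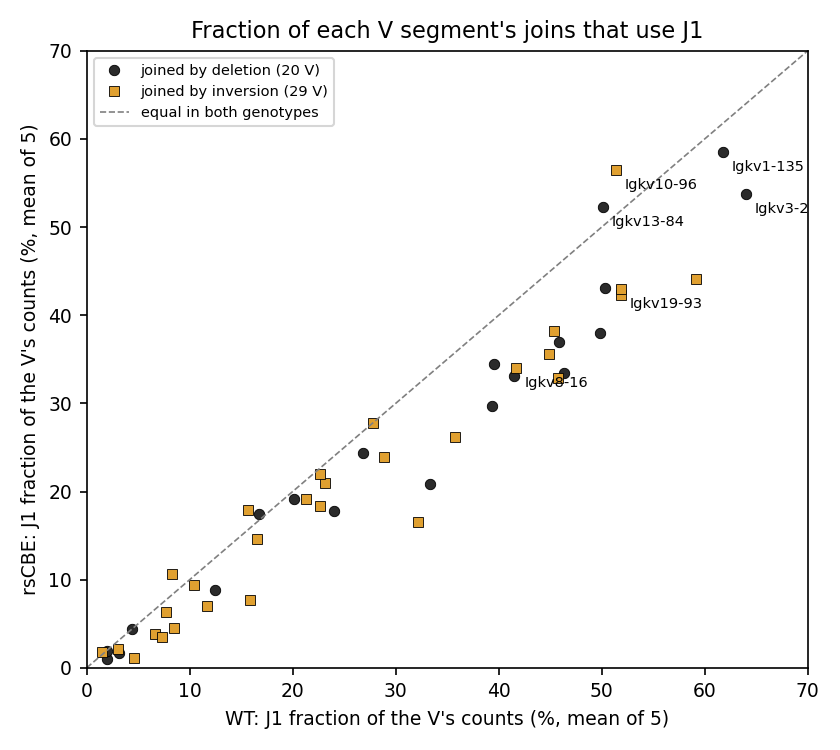
J1 fraction of each of 49 V segments in WT (x axis) and rsCBE (y axis), in percent, each point the mean of 5 samples per genotype, circles for V segments joined by deletion and squares for inversion, with a dashed line of equal values. Most points (41 of 49) lie below the line, and the spread along it runs from a few percent to about the 60.2% of Igkv1-135.

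The V partners of J1 were most like those of J2. The Bray-Curtis distance of V shares to J1 in the same sample was 0.379 ± 0.0497 for J2, 0.444 ± 0.0660 for J4 and 0.449 ± 0.0322 for J5 (SD over 10 samples). The distances among J2, J4 and J5 were smaller, from 0.244 to 0.264 on average. J4 and J5 did not differ in their distance to J1 beyond the spread.

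Many J1 joins recurred across samples. A clonotype here is a distinct V segment and CDR3 with its deposited translation, and J1 had 6052. Of these, 56 were found in all 10 samples, 46 of them in frame and 31 with the whole J1 end. The 56 held 40.2% ± 3.72 of J1 counts in WT and 38.4% ± 2.52 in rsCBE, while 4599 clonotypes found in 1 sample held 13.4% ± 0.962 and 12.2% ± 1.18 (SD, n = 5 each). Among 860 counts, the number in the shallowest sample, 353 ± 77.7 distinct J1 clonotypes were expected in WT and 400.1 ± 26.3 in rsCBE. This did not pass the exact permutation test over all samples (p = 0.238; SD, n = 5 each) and passed with labels exchanged only within the ways of deposition (46.9 more in rsCBE, exact permutation p = 0.0333). WT replicate 4 stood at 228, against 350 to 431.8 in the other WT samples and 375.1 to 437.6 in rsCBE.

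The 8 J1 clonotypes with the highest mean share held 14.3% ± 0.929 and 15.02% ± 1.18 of J1 counts in WT and rsCBE (SD, n = 5 each). All 8 were found in all 10 samples, 6 of them keep the whole J1 end, and 4 of these 6 lack 3 V bases. The leading one, the Igkv8-16 join with the whole J1 end, made up 0.673, 1.01, 2.89, 3.72 and 4.82% in WT and 1.21, 1.22, 5.20, 4.61 and 3.54% in rsCBE, again low in the samples deposited as 1 library. The Igkv9-120 join was next, with 3.08, 2.44, 2.27, 1.86 and 1.95% in WT and 2.74, 2.47, 1.44, 1.19 and 1.46% in rsCBE. The Igkv3-2 join held 1.70% ± 0.468 and 1.59% ± 0.821, and the Igkv1-135 join with 5 J1 bases 1.34% ± 1.01 and 1.67% ± 0.958 (SD, n = 5 each). A pair of the 8 shows ends that overlap the germline J1 end, so that the joint cannot be placed to the base. The joins are shown with the J1 match in capitals.
Igkv16-104 to J1: caacagcataatgaatacccGTGGACG
Igkv8-27 to J1: catcaatacctctcctcGTGGACG
The Igkv16-104 join shares 2 bases between the germline ends and the Igkv8-27 join 1 base. They held 1.63% ± 0.471 and 1.47% ± 0.746 of J1 counts in WT and 1.85% ± 0.631 and 1.42% ± 0.326 in rsCBE (n = 5 each, ± SD). The out-of-frame clonotype with the highest mean share over the 10 samples, the Igkv1-135 join printed above, held 0.772% ± 0.554 in WT and 0.688% ± 0.377 in rsCBE. An Igkv8-16 join of the same shape had more counts in all (281 against 272) and a higher mean in rsCBE, with 0.570% ± 0.466 and 0.779% ± 0.547.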

How the data were processed

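The data are a deposited table of Igk joins from 10 samples in 16 libraries, each line giving V, J, the CDR3 and a count. Per the labels' protocols, reads were paired-end of 151 bp from a MiSeq, and per the submitters' processing notes the build is mm10. The program that called V and J is not given in the sources used here. The counts are whole numbers as the authors deposited them, not normalized. The members and lists were chosen with earlier results of these data known.

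Total counts per sample ran from 3109 to 24083. Parts a and b were added. Germline V and J ends came from GENCODE M21 transcripts (112 of 114 V segments matched the annotation). Shares were compared over samples with two-sided exact permutation tests (smallest p 0.00794 for 5 against 5), or exact sign flips within samples (smallest p 0.00195), with Benjamini-Hochberg adjustment within families of like measures. V-J pairs were tested with edgeR 4.0.16 (glmQLFit, glmQLFTest, filterByExpr, R 4.3.3) and, as an alternative, DESeq2 1.42.0. The edgeR fits with either offset were tested on simulated data, and DESeq2 was not. V segments were named by share of J1 counts (12), adjusted p under 0.05 or smallest p (3 per direction), and J1 fraction (4 at each end, at least 1000 counts), and clonotypes by share (8). Alternatives were other tools and filters, clonotypes counted as 1 or without those of 1 count, single parts, samples left out and fits within each way of deposition. No 2 samples of a genotype differed by as little as counting noise (chi-square per degree of freedom at least 2.39).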

Additional observations from a re-analysis of the deposited data

Results flagged for a closer look

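In 112 groups of 5 samples, 11 had a highest or lowest sample far from the other 4, where chance alone gives about 1 in 20 (5.6), and 5 of the 11 were WT replicate 4, the shallowest. That sample had a 27-nucleotide share of in-frame J1 joins of 68.06% (the others 76.4 to 79.6%) and 2 bases over in 56.65% of out-of-frame J1 joins (66.4 to 69.5%). Its other 3 were J1 fractions on few counts, 19.57% for Igkv4-92 (9 of 46 counts, others 0 to 1.74%), 0% for Igkv10-96 (0 of 4, others 56.9 to 72.7%) and 76.09% for Igkv3-2 (35 of 46, others 59.1 to 63.3%). WT replicate 3 gave 6.931% of Igkv4-91 counts to J1 (7 of 101, others 0 to 0.5%), and rsCBE replicate 4 gave 6.557% (4 of 61, others 0 to 1.43%). In rsCBE replicate 5, Igkv13-84 gave 66.67% to J1 (30 of 45, others 47.8 to 49.4%), and bases of neither germline end were 0.8115 points more frequent with J1 than with other J segments (others -2.07 to -1.27). In rsCBE replicate 3, the proximal share differed from that of other J segments by -1.253 points (others -4.86 to -3.90), and Igkv8-21 made up 4.918% of J1 counts (243 counts, others 2.04 to 2.39%).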

How the results depend on the processing

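The lower J1 share among all and among in-frame joins kept its direction in every alternative run. It passed in all of them except the replicate block and the fits within a single way of deposition, which were too small for a test to pass. The values with 1 sample left out passed for in-frame joins (-6.85 to -5.47 points). Most genotype differences near 0 changed sign under some alternative without passing a test, and the cause was not tested. Depth limits WT replicate 4 most, with 860 J1 counts.

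With every clonotype counted as 1, the genotype differences (rsCBE minus WT) were -5.068 points for the in-frame share of J1 joins, -2.642 for the 27-nucleotide share, -0.004276 for the whole J1 end, -0.2793 for Trp, -0.5271 for proximal, 1.541 for middle and 0.2573 for inverted V segments. The bases kept by in-frame minus other J1 joins were then -0.1468, and Igkv15-103 within J1 had a log2 fold change of 0.03195. Without clonotypes of 1 count, the distal share differed by 0.2098. With labels exchanged within each way of deposition, the J1 share of joins not in frame (-7.75, exact permutation p = 0.05) no longer passed and the number of J1 clonotypes (46.89, exact permutation p = 0.0333) did. Part b alone gave -7.054 for the J1 share of joins not in frame, -0.02391 for bases kept, -0.7457 for the whole end and -0.7146 for Trp. The Bray-Curtis difference of V profiles between minus within genotypes was 0.0121 among samples deposited as 1 library and 0.006747 among those deposited as parts. In the latter, J1 minus the other J segments was 4.169 for the in-frame and -2.812 for the proximal share.

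J1 pairs called by share of the repertoire numbered 2 of 60 with DESeq2's own size factors (5 of all 270 pairs, 1.85%), 2 of 60 with a term for deposition (7 of 270, 2.59%), 10 of 64 among samples deposited as 1 library (35 of 285, 12.3%; chosen after seeing the data) and 0 otherwise. Leaving out 1 sample gave ranges of -9.369 to -6.102 for the J1 share of joins not in frame, -0.05006 to 0.01814 for mean length, -1.617 to 1.264 for the 27-nucleotide share, -0.01426 to 0.03888 for bases kept, -0.8824 to 1.302 for the whole end, -0.3831 to 1.55 for Trp and -1.467 to 1.013 for the distal share. For the genotype difference of the proximal share, J1 minus other J, the range was -1.212 to 1.245.

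Replicate numbers were shared between genotypes, but not every same-numbered pair of V profiles correlated above 0.1 (r = 0.681, 0.658, 0.351, 0.0474 and 0.144), so the numbers were not taken to pair samples. With a replicate block the values were -6.843 for the J1 share, -6.166 in frame, -7.75 not in frame, 4.89 for the in-frame share of J1 minus other J, 0.1928 for bases kept and -3.508 for the proximal share. None passes there, since 5 pairs cannot go below an exact p of 0.0625.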
